A study of Arabidopsis thaliana with 7 samples.

Results

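Iron storage in plant cells rests on ferritins, which hold iron inside plastids and mitochondria, and on transporters that load iron into the vacuole. Measured here were the Arabidopsis thaliana ferritin genes FER1, FER2, FER3 and FER4, the vacuolar iron transporter gene VIT1, and its relatives VTL1, VTL2 and VTL5 (vacuolar iron transporter-like). These 8 genes were listed by name, with earlier results of these data known, and all 8 are rows of the coding and the double-stranded RNA (dsRNA) count tables, which hold 27416 genes. Whole roots of seedlings aged 14 d were taken after 7 d on medium with 0 µM phosphate (low phosphate) or with 500 µM phosphate (control), and the medium recipe gives 10 µM FeCl2 for both. In low phosphate medium NaCl took the place of the phosphate salt. Ribosome footprints, poly(A) RNA and dsRNA were sequenced, with 2 bioreplicates per condition in each assay. Footprints were taken from ribosomes captured through a FLAG-tagged ribosomal protein driven by the 35S promoter in the Columbia-0 background, and plants of both conditions carried it. The labels name that protein RPL18B in the protocols and RPL8 in the sample characteristics, and they give the line of the dsRNA samples as Col-0, although the protocol text of those samples names the tagged line as well. All samples carry one protocol text that covers both media, so each condition was taken from the sample title.

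Ferritin subunits form a hollow shell that keeps iron in a harmless form, and plant ferritin transcripts are known to rise when iron is in excess. FER2 is known mainly from seeds, whereas FER1, FER3 and FER4 are known from vegetative organs. VIT1 moves iron into the vacuole, VTL proteins are smaller members of the same family, and transcripts of VTL1, VTL2 and VTL5 are known to be low in iron-deficient roots. Roots short of phosphate are known to accumulate iron, and FER1 has been described as a target of PHR1, a regulator of the phosphate starvation response.

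Coding counts summed to between 7156329 and 12817826 per footprint library and between 18262547 and 26746252 per poly(A) library, and dsRNA counts to between 2735264 and 8249514 per library. What separates the bioreplicates of a condition is not stated, so p-values measure the spread between these libraries only. The edgeR fits also share that spread over genes, in dsRNA almost wholly. An edgeR p-value in dsRNA therefore says little of the gap between a gene's own bioreplicates. Levels are given as CPM, counts scaled to library size with TMM, a correction for library composition. The 8 root markers were detected in every library, and 2, 3 and 4 of them were called in poly(A) RNA, footprints and dsRNA, in opposite directions. The root hair markers COBL9 and EXPA7 had log2 changes of 0.74 and 0.98 in poly(A) RNA, 1.09 and 1.07 in footprints and 1.77 and 1.49 in dsRNA, all called higher by edgeR except COBL9 in poly(A) RNA. The stele marker SKOR was called lower in each, at -1.68, -1.30 and -3.61. The endodermis marker CASP1 was called higher in dsRNA, at 0.90, and stood at 0.37 in poly(A) RNA and -0.01 in footprints. Other markers of these tissues were not called in any assay and had mixed signs. PHO1 and SHR, of the stele, stood at -0.11 and 0.22 in poly(A) RNA and 0.44 and -0.43 in footprints. SCR, of the endodermis, had 14.0 and 15.2 CPM of dsRNA in low phosphate, against 20.3 and 17.5 CPM in control. The 8 markers had a summed level of 815 to 942 CPM in low phosphate and 771 to 814 CPM in control over the footprint and poly(A) libraries. The 7 green tissue markers summed to 686 and 388 CPM in low phosphate poly(A) RNA, against 279 and 651 CPM in control, and in footprints to 527 and 302 CPM, against 302 and 585 CPM in control. In dsRNA the same markers summed to 78.3 and 65.9 CPM in low phosphate, against 116 and 131 CPM in control. The poly(A) and footprint control libraries also differed among themselves in SPX1, a repressor of phosphate signalling. SPX1 had 413 and 580 CPM of poly(A) RNA in low phosphate, against 35.6 and 219.7 CPM in control. Its footprints stood at 616 and 655 CPM in low phosphate, against 60.5 and 278 CPM in control. The dsRNA control libraries lay closer together in SPX1, at 12.4 and 14.6 CPM, against 530 and 772 CPM in low phosphate. Whether shifts in root cell types, green tissue or the state of the control plants have a part in the results on iron storage genes was not tested.

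By the outer ends of the untranslated regions (UTRs) in the deposited tables, on build TAIR10, FER1 (AT5G01600) lies on the minus strand at chr5:227953-230051. FER2 (AT3G11050) lies on the plus strand at chr3:3463598-3465506, FER3 (AT3G56090) on the minus strand at chr3:20814047-20816035 and FER4 (AT2G40300) on the minus strand at chr2:16831293-16833280. VIT1 (AT2G01770) lies on the minus strand at chr2:334772-336438. VTL1 (AT1G21140) lies on the plus strand at chr1:7404383-7405281, VTL2 (AT1G76800) on the plus strand at chr1:28829308-28830277 and VTL5 (AT3G25190) on the plus strand at chr3:9174457-9175776. In the reference annotation TAIR10.1 the long noncoding RNA gene AT5G01595 overlaps FER1, and protein-coding neighbours overlap the ends of FER2, FER4 and VIT1. AT5G01595 had 14 and 16 footprint counts in low phosphate, against 24 and 11 in control, and 31 to 38 poly(A) counts in the 4 libraries. Whether counting used the strand was not given in the sources used here. Without strand, reads of FER1 and AT5G01595 cannot be told apart.

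Of 25025 small RNA loci in the deposited table, 2 overlapped a member, one each in FER1 and VTL5. The locus in FER1, at chr5:228011-228497, held 218 reads and the one in VTL5, at chr3:9174462-9174862, held 214 reads, while the median locus held 349. In each of them 99.5% of the reads lay on the strand of the gene, and neither was given a Dicer size class. The most frequent sequence of each is shown because these are the small RNAs that the files place within the members; it made up 12 reads in FER1 and 10 in VTL5, and no bases are marked.
FER1 small RNA: aacccgaagauucuguaaaagc
VTL5 small RNA: aacugcacagaugaagagagcuauugaac
No comparison between conditions was made for small RNAs, because the labels list this table under the control small RNA sample alone, and which libraries make up its totals was not given in the sources used here.

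Levels of different genes were compared as poly(A) reads on the 3′ UTR in RPKM, a unit scaled for length and depth. VTL5 had the highest level, with 907 and 925 RPKM in low phosphate and 1304 and 519 RPKM in control. FER1 followed with 227 and 296 RPKM in low phosphate and 229 and 90.3 RPKM in control. These ranges did not overlap, so VTL5 was above FER1 in every library. FER3, VTL1, FER4, VTL2 and FER2 came next, with means over the 4 libraries of 62.4, 59.2, 22.8, 17.6 and 9.42 RPKM. The range over the 4 libraries overlapped between FER1 and FER3 and between each gene and the next in that order. VIT1 was listed at 0 in all 4 libraries, over an annotated 3′ UTR of 3 bases. Its coding counts were 0 in all 4 poly(A) libraries, which allows up to 0.107 to 0.152 CPM (3 counts), and 0 in all 4 dsRNA libraries, which allows up to 0.335 to 1.14 CPM. Footprints of VIT1 numbered 1 and 1 in low phosphate and 0 and 0 in control, too few to test. VIT1 was thus not detectable as poly(A) RNA at this depth.

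**Figure D1:**
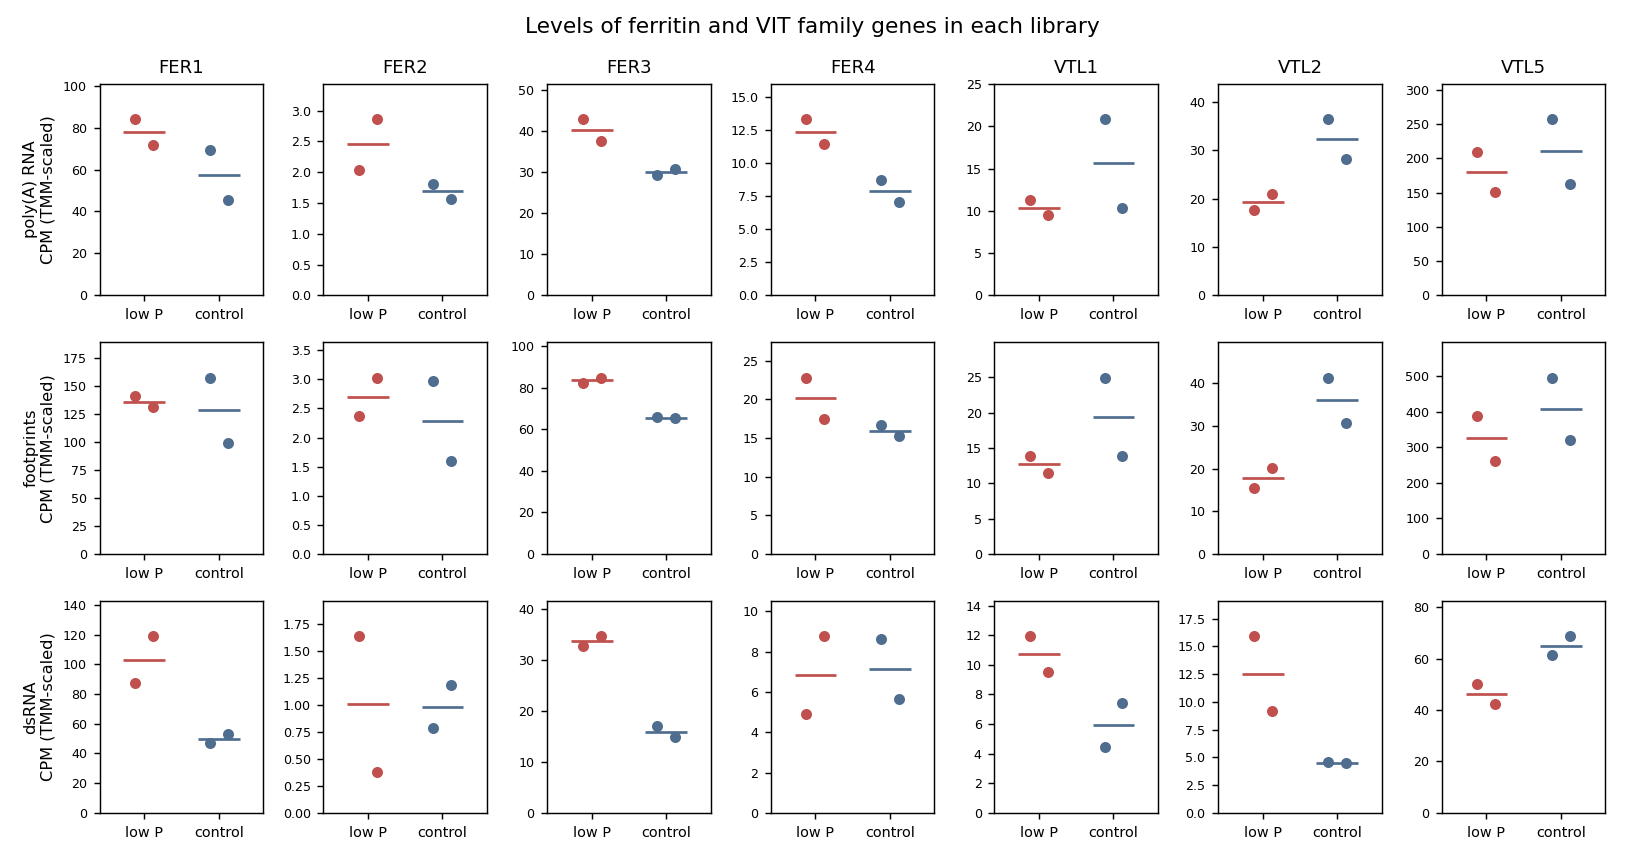
Level of each detected member (columns) in poly(A) RNA, footprints and dsRNA (rows), in TMM-scaled CPM on axes that start at 0. Each point is 1 library, with low phosphate on the left and control on the right, and the line is the mean of 2 bioreplicates; in dsRNA the conditions do not overlap for FER1, FER3, VTL1 and VTL2, which lie higher in low phosphate, and VTL5, which lies lower.

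In poly(A) RNA the 4 ferritin genes had higher levels in both low phosphate libraries than in both control libraries, and none passed the test. FER1 had 84.1 and 71.5 CPM in low phosphate, against 69.2 and 45.3 CPM in control, and a log2 change of 0.44 ± 0.24 (SE, 2 libraries per condition, edgeR adjusted p = 0.712). FER3 had 43.0 and 37.6 CPM in low phosphate, against 29.5 and 30.7 CPM in control, a log2 change of 0.42 ± 0.13 (edgeR adjusted p = 0.280). FER4 had 13.4 and 11.4 CPM in low phosphate, against 8.75 and 7.08 CPM in control, a log2 change of 0.64 ± 0.21 (edgeR adjusted p = 0.298). For FER3 and FER4 the conditions are separated by more than the gap between bioreplicates, whereas the FER1 control libraries differ by more than the conditions. FER2, the gene known from seeds, was low, with 2.04 and 2.87 CPM in low phosphate, against 1.81 and 1.57 CPM in control, and a log2 change of 0.53 ± 0.40 (edgeR adjusted p = 0.837).

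The VTL genes had log2 changes below 0 in poly(A) RNA, none of them called. VTL2 had 17.6 and 21.0 CPM in low phosphate, against 36.5 and 28.3 CPM in control, a log2 change of -0.75 ± 0.21 (edgeR adjusted p = 0.208). Both low phosphate libraries lay below both control libraries. VTL1 had 11.3 and 9.46 CPM in low phosphate, against 20.9 and 10.4 CPM in control, a log2 change of -0.60 ± 0.34 (edgeR adjusted p = 0.739). VTL5 had 209 and 151 CPM in low phosphate, against 258 and 163 CPM in control, a log2 change of -0.23 ± 0.29 (edgeR adjusted p = 0.935). In VTL1 and VTL5 the conditions overlapped, and control bioreplicate 1 held the highest value. Without that library VTL1 stood at -0.004 and VTL5 at 0.14. In all, 0 of the 7 tested members were called by edgeR's quasi-likelihood test, and DESeq2 also called 0. FER3, FER4 and VTL2 had edgeR unadjusted p of 0.0106, 0.0120 and 0.00588, where 1770 of 19866 genes lay under 0.05. Over all 19866 genes tested, 1.18% were called, 0.931% higher and 0.252% lower. Levels beyond those of both control libraries are common: 21.6% of all genes lay above and 20.2% below, so the separation of 4 of 4 ferritins is to be read against 21.6%, and that of 1 of 3 VTL genes against 20.2%. The median log2 change was 0.49 for the ferritins, -0.60 for the 3 tested VTL genes and 0.00 for all genes. A lower share of cells with a transcript and less transcript per cell cannot be told apart in whole roots.

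**Figure D2:**
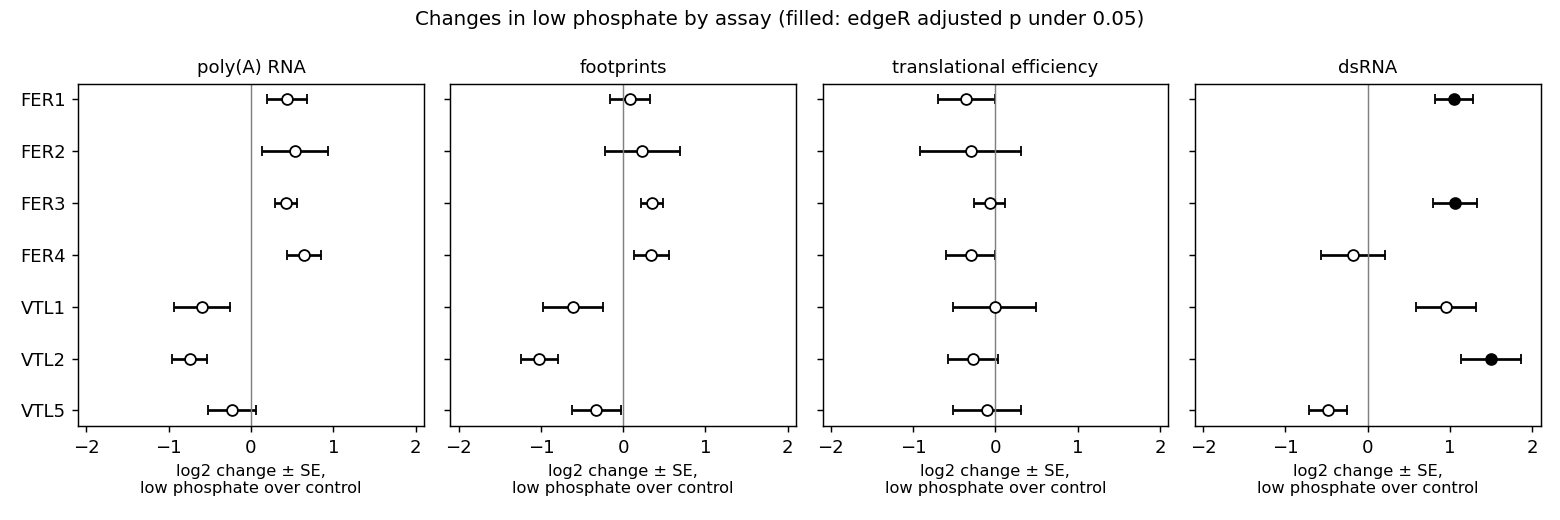
Log2 change of each member, low phosphate over control, with its SE, in poly(A) RNA, footprints, translational efficiency (footprints over poly(A) RNA) and dsRNA (n = 2 libraries per condition and assay). Filled points passed an edgeR adjusted p of 0.05: FER1, FER3 and VTL2 in dsRNA; FER2 was too low to test there.

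Footprints on coding sequences had the same sign as poly(A) RNA for each of the 7 genes, and edgeR called 0 of them. FER3 had 82.5 and 84.8 CPM in low phosphate, against 65.7 and 65.4 CPM in control, a log2 change of 0.35 ± 0.13 (edgeR adjusted p = 0.356). FER4 had 22.8 and 17.4 CPM in low phosphate, against 16.6 and 15.2 CPM in control, a log2 change of 0.34 ± 0.22 (edgeR adjusted p = 0.585). FER1 had 141 and 131 CPM in low phosphate, against 158 and 99.4 CPM in control, so that the conditions overlapped, and a log2 change of 0.09 ± 0.25 (edgeR adjusted p = 0.928). FER2 overlapped too, with 2.38 and 3.03 CPM in low phosphate, against 2.97 and 1.59 CPM in control, a log2 change of 0.23 ± 0.46 (edgeR adjusted p = 0.884). Without control bioreplicate 2 the changes of FER1 and FER2 were -0.20 and -0.14.

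VTL2 had the lowest footprint change of the members. Its footprints stood at 15.6 and 20.1 CPM in low phosphate, against 41.3 and 30.7 CPM in control, a log2 change of -1.02 ± 0.22 (edgeR unadjusted p = 0.0012, edgeR adjusted p = 0.0776). DESeq2 called it lower (DESeq2 adjusted p = 0.00764), as did edgeR with no filter on low counts (edgeR adjusted p = 0.0165); over all its alternatives the adjusted p of the fits ranged from 0.00764 to 0.468. VTL1 had 13.93 and 11.5 CPM in low phosphate, against 25.0 and 13.92 CPM in control, a log2 change of -0.61 ± 0.37 (edgeR adjusted p = 0.568). VTL5, the most abundant member, had 388 and 262 CPM in low phosphate, against 495 and 320 CPM in control, a log2 change of -0.33 ± 0.29 (edgeR adjusted p = 0.715). In both genes the conditions overlapped. Over all 19866 genes 1.19% were called in footprints, 0.911% higher and 0.282% lower. FER3 and FER4 lay higher and VTL2 lower in both low phosphate libraries, where 19.5% of all genes lay higher and 18.4% lower. FER3 and VTL2 were the members with an unadjusted p under 0.05 by edgeR, at 0.0271 and 0.0012. Of all 19866 genes, 2289 had an unadjusted p under 0.05 in that fit.

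Footprints per poly(A) read, a ratio that needs no gene length, were above those of most genes for FER1, FER3, FER4 and VTL5. On the log2 scale, FER3 had ratios of 0.94 and 1.17 in low phosphate and 1.16 and 1.09 in control, and 93.2% to 95.6% of 16843 genes lay below it in the 4 pairs of libraries. FER1 had 0.75 and 0.88 in low phosphate, against 1.19 and 1.13 in control, with 87.9% and 89.9% of genes below it in low phosphate and 93.8% and 95.4% in control. FER4 had 0.77 and 0.61 in low phosphate, against 0.93 and 1.10 in control, and VTL5 had 0.90 and 0.80 in low phosphate, against 0.94 and 0.98 in control. These 4 genes thus carried more footprints per transcript read than the median gene, whose log2 ratio lay between 0.03 and 0.05. VTL2 lay close to that median, with -0.18 and -0.06 in low phosphate, against 0.18 and 0.12 in control. VTL1 had 0.30 and 0.28 in low phosphate and 0.26 and 0.43 in control, and FER2 had 0.22 and 0.08 in low phosphate and 0.71 and 0.02 in control.

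Ratios of FER1, FER4, VTL2 and VTL5 were lower in both low phosphate pairs than in both control pairs, 4 of 7 genes, against 20.3% of all genes, while 17.9% of all genes lay higher and no member did. The test of the change in translational efficiency called 0 of these 7 and 0% of 19866 genes by edgeR. DESeq2 likewise called 0, and edgeR had 397 genes but none of the 7 members at an unadjusted p under 0.05. The 7 changes ran from -0.36 ± 0.35 in FER1 to -0.01 ± 0.50 in VTL1 on the log2 scale (edgeR adjusted p = 1.00 for each), with a median of -0.27 against -0.01 over all genes. In this unpaired fit each is close to or smaller than its SE, and FER1 stood at 0.01 without footprint control bioreplicate 1.

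In dsRNA, RNA left after a nuclease that cuts single strands, FER1, FER3 and VTL2 rose in low phosphate roots. FER1 had 87.4 and 119 CPM in low phosphate, against 46.7 and 52.9 CPM in control, a log2 change of 1.05 ± 0.23 (SE, 2 libraries per condition, edgeR adjusted p = 7.32e-05). FER3 had 32.7 and 34.7 CPM in low phosphate, against 16.99 and 14.9 CPM in control, a log2 change of 1.06 ± 0.27 (edgeR adjusted p = 0.000989). VTL2 had 15.9 and 9.14 CPM in low phosphate, against 4.58 and 4.46 CPM in control, a log2 change of 1.498 ± 0.37 (edgeR adjusted p = 0.00072). FER1 and FER3 were thus about 2.07-fold and 2.08-fold higher and VTL2 2.82-fold higher, with no overlap between conditions. VTL2 counts were small, at 68 and 24 reads in low phosphate and 41 and 15 in control. DESeq2 also called FER1, FER3 and VTL2 higher (DESeq2 adjusted p = 0.000166, 0.00973 and 0.0455), with VTL2 close to the threshold of 0.05.

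The other tested members were not called in dsRNA. VTL1 had 11.9 and 9.52 CPM in low phosphate, against 4.47 and 7.44 CPM in control, a log2 change of 0.95 ± 0.37 (edgeR adjusted p = 0.0606). VTL5 had 50.3 and 42.3 CPM in low phosphate, against 61.5 and 68.7 CPM in control, a log2 change of -0.48 ± 0.23 (edgeR adjusted p = 0.157). FER4 had 4.91 and 8.76 CPM in low phosphate, against 8.61 and 5.65 CPM in control, a log2 change of -0.18 ± 0.39 (edgeR adjusted p = 0.824). In VTL1 and VTL5 the conditions did not overlap, higher in VTL1 and lower in VTL5, and in FER4 they did. Over all genes tested, 26.8% lay higher and 27.1% lower in both low phosphate libraries. FER2 did not pass the filter, with 7 and 1 reads in low phosphate and 7 and 4 in control.

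Changes in dsRNA were common: of 17570 genes tested, 15.7% were called, 10.2% higher and 5.57% lower, so 3 of 6 tested members higher is to be read against 10.2%. These shares move with the libraries used. They fell without either control bioreplicate, rose without low phosphate bioreplicate 2 and hardly moved without low phosphate bioreplicate 1. The 3 calls were lost without either control library, while the changes kept their size and the SEs grew. Without dsRNA control bioreplicate 1 the edgeR adjusted p was 0.316 for FER1, 0.151 for FER3 and 0.109 for VTL2, at log2 changes of 0.96 ± 0.45, 1.18 ± 0.46 and 1.51 ± 0.56. Without control bioreplicate 2 the edgeR adjusted p was 0.140, 0.217 and 0.0501 for the same genes, at 1.14 ± 0.44, 0.98 ± 0.42 and 1.48 ± 0.49. Without low phosphate bioreplicate 1 the log2 change of VTL2 shrank to 1.00 and was not called, and VTL5 was called lower, at -0.61. Without low phosphate bioreplicate 2 VTL2 stood at 1.81, and VTL1 was called higher, at 1.12. The dsRNA samples came from another extract and kit and were fitted apart, so their changes and those of poly(A) RNA stand side by side and their difference was not tested. Log2 changes in dsRNA and in poly(A) RNA were 1.05 and 0.44 for FER1, 1.06 and 0.42 for FER3, and 1.498 and -0.75 for VTL2.

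Footprints on the 5′ UTRs, left by ribosomes ahead of the main reading frame or at its start, lay lower in low phosphate for the VTL genes and higher for FER2 and FER3. VTL5 had 866 and 727 RPKM in low phosphate, against 1555 and 1033 RPKM in control, over a 5′ UTR of 48 bases with 219 to 396 reads per library. VTL1 had 34.9 and 39.3 RPKM in low phosphate, against 137 and 57.0 RPKM in control, and VTL2 had 73.2 and 38.7 RPKM in low phosphate, against 163 and 75.9 RPKM in control. In all 3 VTL genes both low phosphate libraries lay below both control libraries. Reads were few for VTL1, at 24 and 20 in low phosphate and 59 and 23 in control. For VTL2 they were 23 and 9 in low phosphate and 32 and 14 in control. The nearest VTL2 values, 73.2 and 75.9 RPKM, thus differed little for such counts. FER3 lay the other way, with 229 and 219 RPKM in low phosphate, against 155 and 146 RPKM in control, from 37 to 99 reads per library. FER2 had 26.7 and 24.0 RPKM in low phosphate, against 0 and 15.1 RPKM in control, from at most 12 reads. FER1 and FER4 overlapped, with 17.8 and 25.8 RPKM in low phosphate, against 59.0 and 25.5 RPKM in control, for FER1, and 41.1 and 16.9 RPKM in low phosphate, against 34.3 and 6.08 RPKM in control, for FER4.

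Over all 28602 5′ UTRs with a mean of at least 1 RPKM, 28.3% lay lower and 8.07% higher in both low phosphate libraries, and the median was 16.8 and 21.2 RPKM in low phosphate, against 27.9 and 21.97 RPKM in control. No test was run on these values. Footprints on the 3′ UTR of VTL5 also lay lower, with 175 and 138 RPKM in low phosphate, against 326 and 217 RPKM in control, where 24.3% of 19851 3′ UTRs lay lower and 11.1% higher. For the other members they overlapped. The upstream open reading frame (uORF) table has 1 entry each for FER1 and FER2. That of FER1 has 150 bases within its 5′ UTR of 457 bases. That of FER2 has 69 bases, more than its annotated 5′ UTR of 53 bases. Both are listed at 0 for footprints in all 4 libraries. The poly(A) score of FER1 was 48 and 125 in low phosphate and 9 and 106 in control. For FER2 it was 23 and 0 in low phosphate and 23 and 95 in control. The whole 5′ UTR of FER1 held 58 to 143 footprint reads per library. How this score was scaled was not given in the sources used here.

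**Figure D3:**
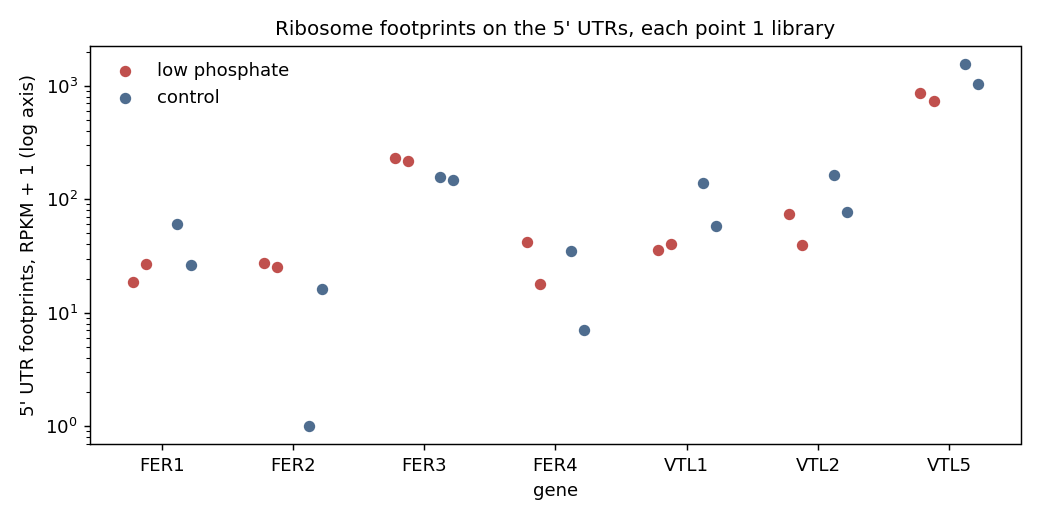
Footprints on the 5′ UTR of each detected member, as RPKM + 1 on a log axis, with 1 point per library and low phosphate left of control. VTL1, VTL2 and VTL5 lie lower in both low phosphate libraries, and FER2 and FER3 lie higher.

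Other genes of iron nutrition were described from lists. Among VIT family relatives, MEB1 and MEB2, proteins of endoplasmic reticulum bodies, had poly(A) log2 changes of -0.03 ± 0.13 and -0.12 ± 0.15 (edgeR adjusted p = 0.986 and 0.933). In dsRNA MEB1 fell, with 80.4 and 102 CPM in low phosphate, against 152 and 153 CPM in control, a log2 change of -0.75 ± 0.22 (edgeR adjusted p = 0.00851), and MEB2 was at -0.46 ± 0.24 (edgeR adjusted p = 0.202). AT3G43630 and AT3G43660 had at most 3 reads in any library. The 5 vacuolar metal transport genes had a median log2 change of -0.33 in poly(A) RNA, and of 4 tested in dsRNA 1 fell. It was IREG2, a ferroportin gene of the vacuolar membrane named after its values were seen, with 3.27 and 6.47 CPM in low phosphate, against 16.2 and 26.5 CPM in control, a log2 change of -2.16 ± 0.35 (edgeR adjusted p = 3.86e-08).

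Over all 53 genes of the iron lists beside the members, 50 were tested in poly(A) RNA. There edgeR called 6, each lower, with a median log2 change of -0.38, against 0.252% of all genes lower. In footprints edgeR called 4 of 50, each lower, with a median of -0.32, against 0.282% of all genes lower. In dsRNA 18 of 43 fell, with a median of -0.46, against 5.57% of all genes lower. The 1 that rose there was FRD3, a citrate exporter gene named after its values were seen, at 0.93 ± 0.33 (edgeR adjusted p = 0.0379), and DESeq2 called 0 higher and 14 lower. Those that fell in poly(A) RNA were FRO2, CYP82C4, NAS1, OPT3, AT3G12900 and AT1G74770, and of these FRO2, CYP82C4, NAS1 and AT3G12900 also fell in footprints. FRO2 reduces ferric iron at the root surface, CYP82C4 acts in coumarin synthesis, NAS1 makes nicotianamine and OPT3 moves iron in the phloem. Their log2 changes in poly(A) RNA lay between -2.04 and -0.97, where the ferritins lay between 0.42 and 0.64. IRT1 of the iron uptake list was not called in poly(A) RNA or in footprints. It stood at -1.56 ± 0.32 in poly(A) RNA (edgeR adjusted p = 0.0614) and -1.62 ± 0.32 in footprints (edgeR adjusted p = 0.0511). AHA2 of that list stood at -0.58 ± 0.16 and -0.27 ± 0.16 (edgeR adjusted p = 0.181 and 0.558). In dsRNA IRT1 had 97.7 and 153 CPM in low phosphate, against 339 and 465 CPM in control. AHA2 had 1589 and 2105 CPM of dsRNA in low phosphate, against 3379 and 3663 CPM in control. Both thus lay lower without overlap in dsRNA, where 27.1% of all genes did. Leaving out 1 library moved the count of genes that fell to between 1 and 5 in poly(A) RNA (1 without control bioreplicate 1 or low phosphate bioreplicate 1) and to between 2 and 4 in footprints. In dsRNA it became 9 without control bioreplicate 1, 10 without control bioreplicate 2, and 17 and 22 without low phosphate bioreplicates 1 and 2.

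**Figure D4:**
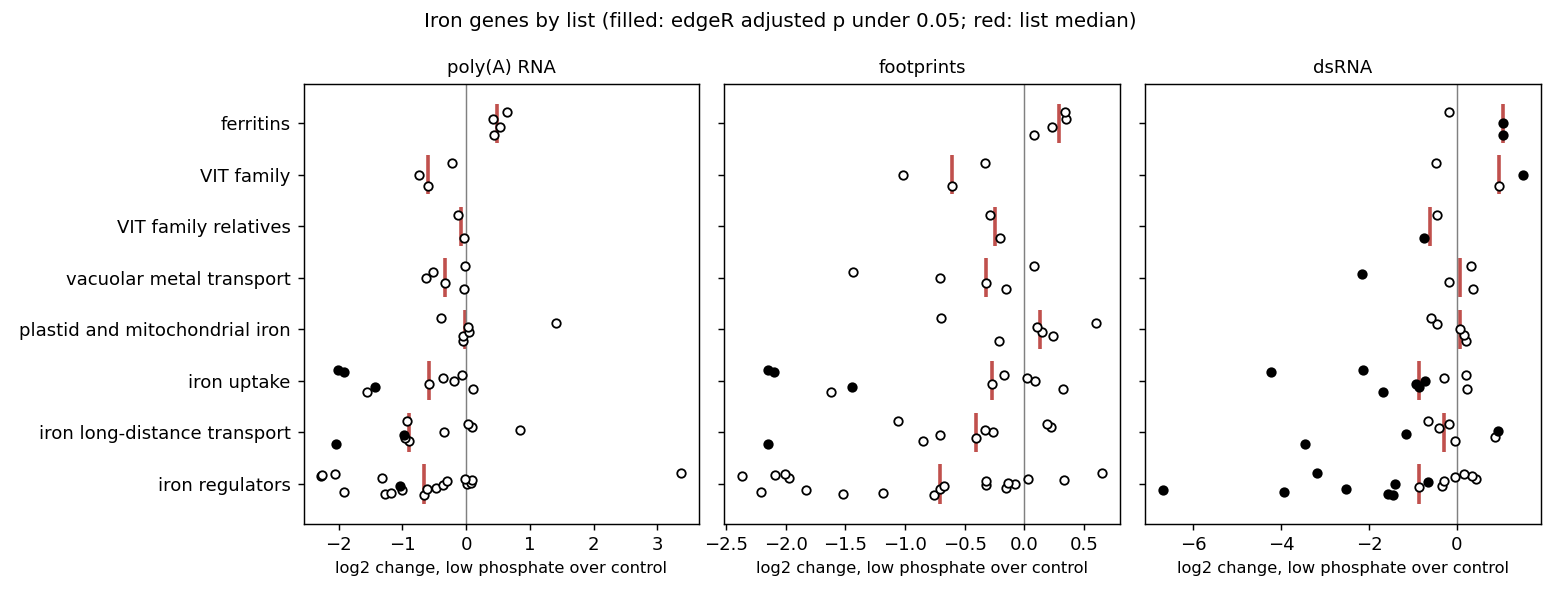
Log2 change, low phosphate over control, of each tested gene of the member families and of 6 iron gene lists in poly(A) RNA, footprints and dsRNA, with the list median as a red line. Filled points passed an edgeR adjusted p of 0.05; the called iron genes lie below 0 in poly(A) RNA and footprints, and the ferritin medians lie at 0.49, 0.29 and 1.05.

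The genes whose pattern was most like that of FER1 over the 8 coding libraries, after each assay's mean was subtracted, were AT4G40020, GPX3, AT4G39795, AT5G25590 and AT4G28550, with Pearson coefficients from 0.961 to 0.968. GPX3 is a glutathione peroxidase gene. FER4 and FER3 reached 0.774 and 0.525 with FER1, and VTL2 had -0.237. For VTL5 the most alike genes were NPGR2, RR10, PAO3, GTE2 and AT5G38010, with coefficients from 0.985 to 0.994, and among members VTL1 reached 0.912 and FER3 had -0.354. FER1 and VTL5 were taken as the ferritin and the VIT family gene of highest poly(A) level per kilobase of gene. These coefficients were ranked over 11465 genes and describe these 8 libraries only. In FER1, VTL1 and VTL5 bioreplicate 1 lay above bioreplicate 2 in each condition of both assays. The coefficients do not separate differences between bioreplicates from those between conditions.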

How the data were processed

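The deposited counts are raw reads per gene (coding and dsRNA tables), per noncoding transcript and per small RNA locus. The deposited UTR values are RPKM, per the title of the authors' tables; 100% of them are whole multiples, within 0.01, of the value of 1 read over the region's length, which gave reads per region. The deposited uORF values are a score of unstated scale, and the small RNA strand share comes from a deposited fraction. Per the submitters' processing notes CASAVA 1.8, TopHat 1.3.1, Bowtie2 2.2.9 and build TAIR10 were used; which read counter was used was not given in the sources used here.

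Coding libraries (8) were fitted together with edgeR 4.0.16 (R 4.3.3; TMM, default expression filter, quasi-likelihood test, Benjamini-Hochberg over all genes, threshold 0.05), and the 4 dsRNA libraries apart. SE is the log2 change over the square root of the F statistic. Alternatives were DESeq2 1.42.0, RLE scaling, no filter, replicate numbers as a block, each assay alone and leaving out each library. Tests were checked on simulated data. Footprint to poly(A) ratios used same-numbered libraries and at least 10 counts. Likeness used log2(CPM + 0.5) of genes with at least 10 CPM in each assay. Members and lists were chosen with earlier results of these data known. The rule for named genes took all members, listed VIT family relatives, SPX1 and the 5 most alike genes. Of list genes called in any assay it took at most 10, by smallest poly(A) p, and not all of these are named. Names come from a TAIR10.1 table, which matched 26719 of 27416 coding identifiers. Floors of 3 counts cover counting error only.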

Additional observations from a re-analysis of the deposited data

Results flagged for a closer look

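Among the members, VTL2 was flagged because its libraries moved in opposite directions between assays. Every low phosphate library lay above both control libraries in dsRNA, and below both in poly(A) RNA and in footprints. For VTL2 the log2 ratio of mean CPM, low phosphate over control, was 1.47 in dsRNA, -0.75 in poly(A) RNA and -1.01 in footprints. NRAMP3 and NAS4 of the iron lists, named after their values were seen, had the same arrangement of libraries. VTL1 had log2 changes of the same signs, at 0.95 in dsRNA, -0.60 in poly(A) RNA and -0.61 in footprints, none of them called. Without control bioreplicate 1 of the assay, VTL1 stood at 0.54 in dsRNA, -0.004 in poly(A) RNA and -0.12 in footprints. The share of all genes with this arrangement was not counted. The difference between assays was not tested.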

How the results depend on the processing

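None of the settings tried gave a called member in poly(A) RNA or translational efficiency. In footprints DESeq2 and the fit with no low-count filter each called 1 member, VTL2, and the other alternatives called 0. In dsRNA the count of called members ran from 0 to 4 when 1 library was left out, and the other alternatives called 3. A lone library left in a condition was assumed to vary like the others.

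Log2 changes that reversed did so mainly when 1 library was left out. Their ranges were -0.54 to 0.14 for VTL5 in poly(A) RNA, and in footprints -0.63 to 0.021 for VTL5, -0.20 to 0.45 for FER1 and -0.14 to 0.75 for FER2. In translational efficiency they were -0.69 to 0.014 for FER1, -0.68 to 0.21 for FER2, -0.16 to 0.035 for FER3, -0.61 to 0.47 for VTL1 and -0.47 to 0.25 for VTL5, and VTL1 was also at 0.0020 with RLE scaling and 0.00018 with no low-count filter. In dsRNA the range was -0.60 to 0.23 for FER4. The cause was not tested.

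With the replicate number as a replicate block, edgeR called 0 members in poly(A) RNA, 0 in footprints and 3 in dsRNA. In poly(A) RNA the block moved the edgeR unadjusted p of FER1 from 0.102 to 0.0143 and of VTL1 from 0.114 to 0.0402. In footprints it moved that of VTL1 from 0.130 to 0.0375 and of VTL5 from 0.295 to 0.0220. The edgeR adjusted p of these stayed at 0.223 or above. For FER2 the unadjusted p rose, to 0.240 in poly(A) RNA and 0.644 in footprints. Over all genes the block gave 296 higher and 126 lower in poly(A) RNA, against 185 and 50 without it, and 275 higher and 143 lower in footprints, against 181 and 56. Same-numbered libraries of low phosphate and control deviated together with a correlation of 0.0975 in poly(A) RNA, -0.0397 in footprints and -0.0205 in dsRNA, so the numbers were not taken as pairs. Footprint and poly(A) libraries did so at 0.499 in low phosphate and 0.325 in control, and taking them as pairs called 0 members and, over all genes, 3 higher and 5 lower in efficiency, with 1559 genes at an unadjusted p under 0.05 against 397. In that fit FER1 was at -0.35 ± 0.16 in efficiency (edgeR unadjusted p = 0.0386, edgeR adjusted p = 0.606). DESeq2 called 315 higher and 111 lower in poly(A) RNA, 320 and 157 in footprints and 1286 and 486 in dsRNA, against 1787 and 978 by edgeR, and with no low-count filter edgeR called 285 and 86 in poly(A) RNA and 300 and 125 in footprints. Iron list genes called lower were 14 in poly(A) RNA and 13 in footprints with the block, and 8 in each by DESeq2. The low counts of FER2 and VIT1 limit what can be said of them.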
